A study of Homo sapiens with 5 samples.

Results

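Gene counts were measured by RNA-seq in SAS, an established human cell line of tongue squamous cell carcinoma. The genes described here encode the subunits of the proteasome: every gene whose symbol is PSMA, PSMB, PSMC or PSMD followed by a number, except the inducible PSMB8, PSMB9 and PSMB10, and listed in both deposited gene tables. The rule found 34 genes of the 15187 that the tables share, 14 of the core (PSMA and PSMB) and 20 of the cap (PSMC and PSMD), and all 34 passed the filter on low counts. Cells carried a control short hairpin RNA (shCtrl, 2 libraries) or a short hairpin RNA that knocks down CCT2 (shCCT2, 3 libraries). CCT2 encodes a subunit of the chaperonin CCT, which folds actin, tubulin and other cytosolic proteins. The first table holds shCtrl 1, shCCT2 1 and shCCT2 2, and the second table holds shCtrl 2 and shCCT2 3. The labels do not say whether the knockdown libraries share 1 hairpin sequence, whether cells were a pool or a clone, or whether libraries came from separate cultures, so the spread that the p-values rest on is that of 5 libraries and may be technical.

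The proteasome degrades proteins that carry ubiquitin chains. Its core particle is a barrel of stacked rings: alpha subunits (PSMA genes) gate the entrance, and beta subunits (PSMB genes) form the chamber, with the cutting sites on PSMB5, PSMB6 and PSMB7. The cap that sits on the barrel has a base, in which the PSMC ATPases unfold the substrate, and a lid, in which PSMD14 removes the ubiquitin chain. The subunit genes are known to be switched on together by the transcription factor NFE2L1 when proteasome capacity is short, and in cells exposed to interferon PSMB8, PSMB9 and PSMB10 replace the constitutive cutting subunits.

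Library totals ran from 16913585 to 18156592 counts. In normalised CPM (counts relative to the scaled library total), CCT2 itself was at 629.9 and 642.4 in the controls and at 296.1, 272.4 and 260.2 in shCCT2 1, 2 and 3, so the target was lower in every knockdown library. DESeq2's Wald test called CCT2 (adjusted p = 7.5e-05), while edgeR's quasi-likelihood test did not (Benjamini-Hochberg adjusted p = 0.542). Markers of squamous epithelium were present, with all 10 above 10 CPM in some library, but their summed level ran from 2472 CPM in shCtrl 2 to 5990 CPM in shCtrl 1, and the epithelial cadherin gene CDH1 differed between the controls, at 251.5 CPM (shCtrl 1) and 10.6 CPM (shCtrl 2). Summed markers of fibroblasts were at most 11.8 CPM in any library and those of endothelium at most 7.48 CPM. Leukocyte markers reached 22.5 CPM, in a knockdown library, and 6.66 CPM at most in the controls. Markers that were not in both tables included CD3E, COL1A2, COL3A1, DCN, LUM and TEK. The part of these other markers in the results below was not tested.

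No proteasome gene passed the test of knockdown against control (edgeR's quasi-likelihood test, Benjamini-Hochberg adjusted over 13123 genes, lowest adjusted p among the 34 of 0.542). The same test called 0% of all genes higher and 0% lower. At an unadjusted p under 0.05, 1 of the 34 genes was higher (PSMC5) and 0 were lower, against 2.83% of all genes higher and 4.57% lower. DESeq2's Wald test called 0 of the 34 and 0.164% of the genes for which it gave an adjusted p. The values below are therefore levels and differences that did not pass, and in bulk RNA fewer cells of a kind and less RNA per cell cannot be told apart.

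The fitted log2 change was above 0 for all 34 genes, against 48.5% of all genes tested. Its median was 0.26 over the 14 core genes and 0.42 over the 20 cap genes, against -0.016 over all genes. The size of the difference was unequal among the 3 knockdown libraries. The core genes had a median log2 change of 0.07 in shCCT2 1, 0.02 in shCCT2 2 and 0.57 in shCCT2 3, each against the control of its own table. The cap genes had 0.24, 0.05 and 0.74. The 10 squamous epithelium markers also differed in the second table, with a median log2 change of 1.09. There 9 were higher in shCCT2 3, 7 of them by 1.5-fold or more, against 48.8% and 19.8% of all genes. The sum of the markers was 2472 CPM in the control and 5632 CPM in the knockdown library of that table, and was lowest in shCtrl 2. The genes behind the low sum and the rise largely differed. LAMB3, ITGB4 and KRT6A were not lower in shCtrl 2 than in shCtrl 1. They rose from 727, 487 and 64.8 CPM in shCtrl 2 to 2405, 1178 and 630 CPM in shCCT2 3. KRT5, KRT14, KRT17 and CDH1 lay below the first table in both libraries of the second table. TP63, EPCAM and DSP were lowest in shCtrl 2 and higher in shCCT2 3. In the first table the medians of the 10 markers were -0.35 in shCCT2 1 and -0.16 in shCCT2 2. Their part in the result was not tested. In shCCT2 2 the proteasome genes were near their control. The log2 change of CCT2 was -1.09 in shCCT2 1, -1.21 in shCCT2 2 and -1.30 in shCCT2 3. Each is 1 library against 1 control, and the part of the CCT2 level in the unequal changes was not tested.

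Counted by gene, 29 of the 34 were higher in shCCT2 1, 23 in shCCT2 2 and 32 in shCCT2 3, against 49.7%, 49.7% and 48.8% of all genes. In all 3 knockdown libraries, 17 were higher (6 core and 11 cap) and 0 lower, against 20.2% and 21.4% of all genes. The changes in shCCT2 1 and shCCT2 2 share shCtrl 1 as their only control, so they are not independent. A change of 1.5-fold or more upward was seen for 18 of the 34 in shCCT2 3, where 19.8% of all genes reached it, and for 0 in shCCT2 1 and 0 in shCCT2 2, where 3.72% and 2.33% did. No gene of the 34 was lower by that much in shCCT2 3, against 24.5% of all genes. Without shCtrl 2 or without shCCT2 3, either of which leaves the change to the first table alone, 12 of 14 core and 19 of 20 cap genes had a fitted value above 0, and the medians were 0.05 and 0.15. Without shCtrl 1, the change rests on the pair of the second table, and the medians were 0.60 and 0.78. Single genes depended on these libraries in the same way: without shCCT2 3 and without shCtrl 1, the fitted change was 0.23 and 1.36 for PSMD2, and 0.17 and 1.11 for PSMD1.

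**Figure D1:**
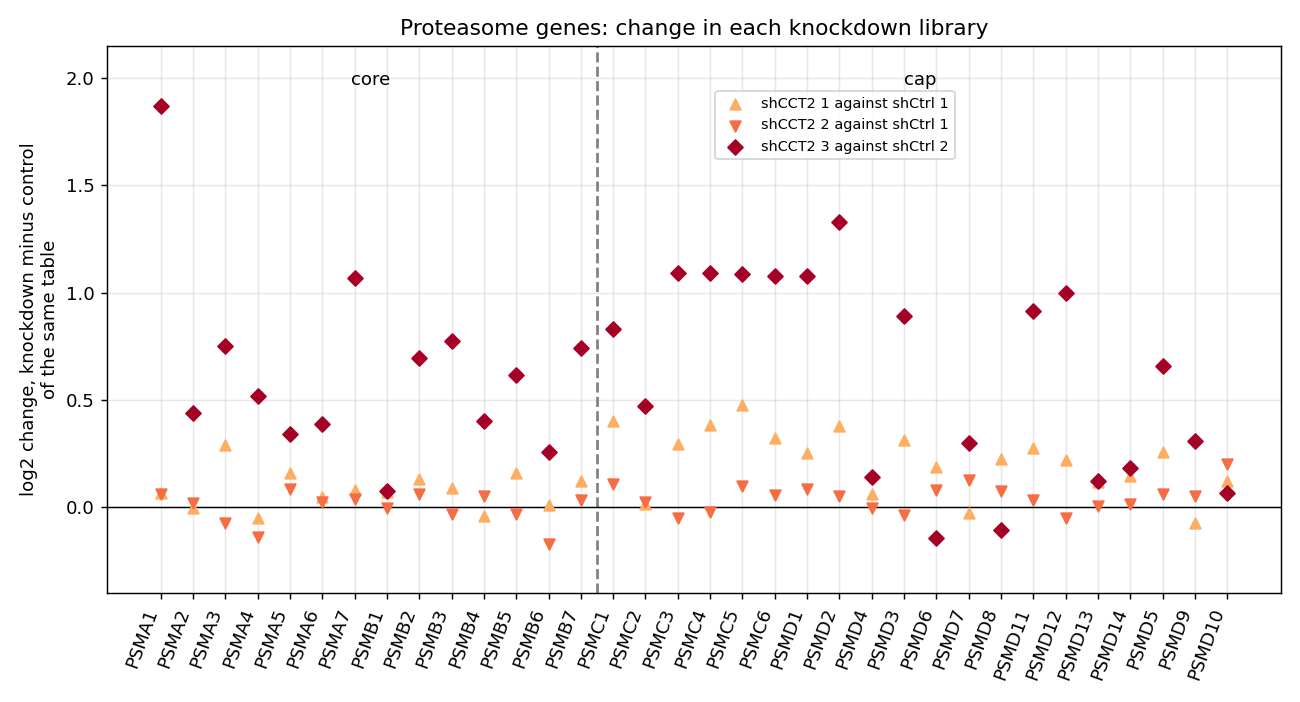
Log2 change of each proteasome gene (vertical axis, log2 of normalised CPM with 0.5 added, knockdown minus the control of the same table) for the 34 genes (horizontal axis), 1 point per knockdown library and no error bar, since each point is 1 library against 1 library. The shCCT2 3 diamonds lie above 0 for all but PSMD6 and PSMD8, and the shCCT2 2 points lie between -0.17 and 0.20.

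In the second table most proteasome genes were low in the control. Of the 34 genes, 29 were lower in shCtrl 2 than in shCtrl 1 (50.1% of all genes were), and 16 were lower by 1.5-fold or more (24.7% of all genes). PSMA1 was the 1 gene higher by that much, against 27.4% of all genes. The level of shCtrl 2 lay below all 3 libraries of the first table for 13 of 14 core and 16 of 20 cap genes. In shCCT2 3 that held for 9 core and 5 cap genes, while 3 core and 12 cap genes lay above all of the first table. These counts are of normalised CPM and depend on the scaling between the tables. The tables were deposited separately and each control is 1 library, so these levels set across tables carry no test, and the table and the control cannot be told apart.

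Summed over genes, the cap came to 3437, 4120 and 3555 CPM in the first table (shCtrl 1, shCCT2 1, shCCT2 2) and to 2419 and 4012 CPM in the second table (shCtrl 2, shCCT2 3). On this scaling the low library of the 5 is shCtrl 2, and the other 4 lie within 3437 to 4120 CPM. The scaling factors (TMM) were 0.9653, 0.9355 and 0.9548 in shCtrl 1, shCCT2 1 and shCCT2 2. In shCtrl 2 and shCCT2 3 they were 1.119 and 1.036. A higher factor lowers the normalised CPM, so the place of shCCT2 3 among the libraries of the first table depends on this scaling. The core without PSMA1 stood at 3049, 3219 and 3048 CPM in shCtrl 1, shCCT2 1 and shCCT2 2, and at 1924 and 2935 CPM in shCtrl 2 and shCCT2 3. There too shCtrl 2 is the low one. On this scaling shCCT2 3 lay just under the libraries of the first table, and that place also depends on the scaling.

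**Figure D2:**
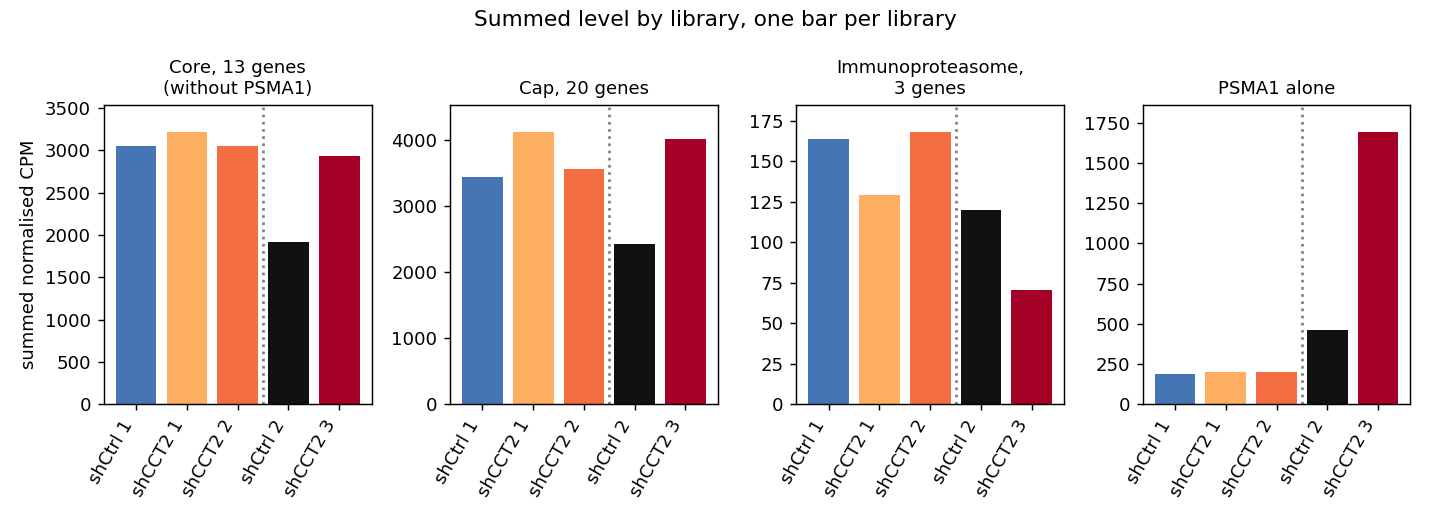
Summed normalised CPM (vertical axes, each from 0) in the 5 libraries for the core genes without PSMA1, the cap genes, the 3 immunoproteasome genes and PSMA1 alone. Each bar is 1 library, with the first table left and the second table right of the dotted line. shCtrl 2 is the lowest bar for core and cap, shCCT2 3 is the lowest for the immunoproteasome genes at 70.9 CPM, and PSMA1 reaches 1693 CPM in shCCT2 3.

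Whether the knockdown change differed between the tables was tested as an interaction, which has 1 residual degree of freedom. That degree comes from shCCT2 1 against shCCT2 2 alone. The other arms hold 1 library each and are assumed to vary like that pair, so a pass or a low p here is no replicate check of the second table. By edgeR with Benjamini-Hochberg adjustment, 0 of the 34 genes and 0% of all genes passed (lowest adjusted p among the 34 of 0.125, for PSMA1). At an unadjusted p under 0.05, 9 of the 34 had a higher change in the second table, against 7.83% of all genes, and 0 a lower one, against 9.35%. The 9 were PSMA1, PSMA7, PSMB3, PSMC3, PSMC4, PSMC6, PSMD1, PSMD2 and PSMD12. PSMA1 was past the threshold with DESeq2's Wald test (adjusted p = 0.00022), which called 2.18% of all genes. It was also past it with robust estimation in edgeR (Benjamini-Hochberg adjusted p = 0.0357), which called 1.41%, and in edgeR without TMM scaling (adjusted p = 0.0134), which called 4.38%. In each of these settings that is 1 gene of 34, a share near the background.

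Among the alpha ring genes, PSMA1 stood apart. In the first table its levels were 191.3, 200.4 and 199.7 CPM (shCtrl 1, shCCT2 1, shCCT2 2), but in the second table they were 462.8 CPM (control) and 1693 CPM (knockdown). The 3 libraries of the first table lie close together, and both libraries of the second table lie above them. Its log2 changes were 0.07, 0.06 and 1.87 in shCCT2 1, 2 and 3, with a fitted change of 0.79 ± 0.41 (SE, 3 knockdown and 2 control libraries). Without shCCT2 3 the fitted change was 0.06. Its counts were whole numbers in all 5 libraries. RefSeq's GRCh38.p14 lists 1 pseudogene named for PSMA1 and no gene that overlaps it. Leaving PSMA1 out, the fitted median of the core went from 0.26 to 0.22, and its median in shCCT2 3 from 0.57 to 0.52.

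PSMA7, the other alpha gene with a high fitted value, stood at 348.2, 367.9 and 357.5 CPM in shCtrl 1, shCCT2 1 and shCCT2 2, and at 274.7 CPM in shCtrl 2 and 576.1 in shCCT2 3. The libraries of the second table enclose those of the first table. Its log2 changes were 0.08, 0.04 and 1.07 (fitted 0.48 ± 0.27). Without shCCT2 3 the fitted value was 0.06, and without shCtrl 1 it was 1.1. The remaining alpha genes, PSMA2 to PSMA6, had fitted changes of 0.16 to 0.39. They were higher in shCCT2 3 by 0.34 (PSMA5) to 0.75 (PSMA3) on the log2 scale, and within 0.29 of their control in the first table. PSMA2 stayed low in the second table, with 90.2 CPM in shCtrl 2 and 122.3 CPM in shCCT2 3 against 199.1 to 202.5 CPM in the first table.

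The beta ring genes that carry the cutting sites differed little in the first table. PSMB5, which encodes the chymotrypsin-like subunit, stood at 209.1, 233.6 and 204.8 CPM in shCtrl 1, shCCT2 1 and shCCT2 2, and at 93.6 CPM in shCtrl 2 and 143.9 in shCCT2 3. Both libraries of the second table lay below the first table, and the knockdown library was the higher of the pair (fitted log2 change 0.30 ± 0.21). PSMB6, the caspase-like subunit gene, stood at 207.1, 208.5 and 184.1 CPM in the first table and at 116.8 and 139.9 CPM in shCtrl 2 and shCCT2 3 (fitted 0.07 ± 0.19). PSMB7, the trypsin-like subunit gene, stood at 259.7, 282.3 and 266.0 CPM in the first table and at 206.8 and 346.2 CPM in the second table (fitted 0.36 ± 0.22). Of these 3 genes, PSMB7 was the one whose shCCT2 3 level lay above all of the first table.

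The structural beta genes PSMB1 to PSMB4 do not carry cutting sites. PSMB1 had the lowest fitted change of the core, 0.05 ± 0.17, with 262.6, 275.5 and 262.3 CPM in the first table and 130.9 and 138.0 CPM in shCtrl 2 and shCCT2 3. Its 5 levels thus separate by table, and within a table the libraries lie close together. PSMB2, PSMB3 and PSMB4 had log2 changes of 0.69, 0.77 and 0.40 in shCCT2 3, and between -0.04 and 0.13 in the first table.

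**Figure D3:**
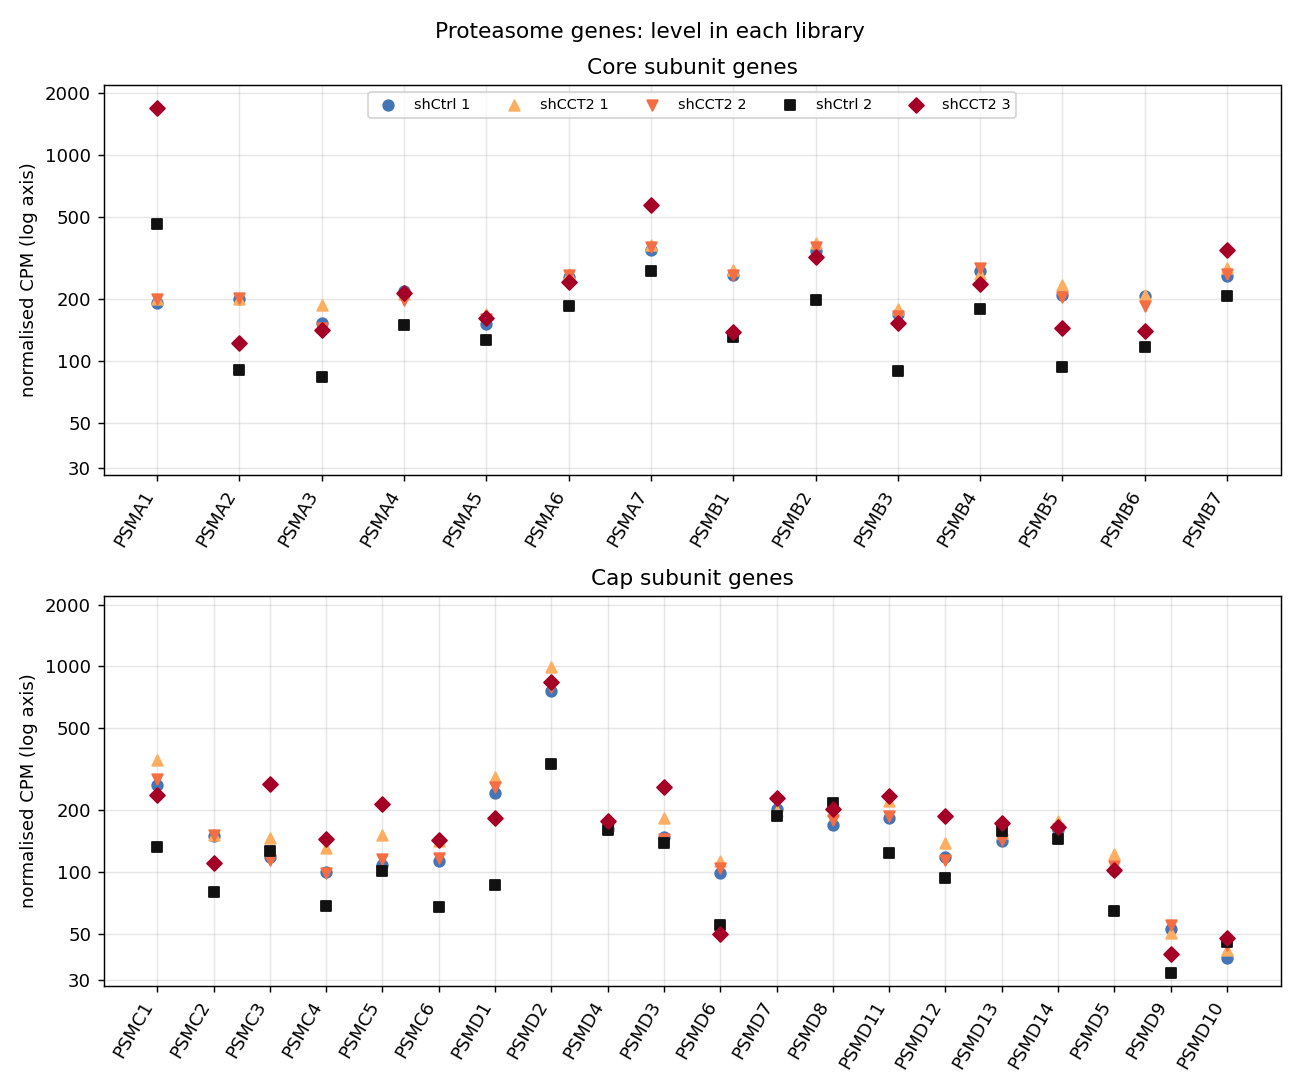
Normalised CPM (vertical axis, log scale) of each core gene (upper panel) and each cap gene (lower panel) in the 5 libraries, 1 marker per library. The black squares of shCtrl 2 are the lowest marker for most genes. PSMB1, PSMA2 and PSMB5 are among the genes that are low in both libraries of the second table, and PSMA1 is high in both.

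In the cap, the base genes had the larger differences. The 6 ATPase genes PSMC1 to PSMC6 encode the ring that unfolds substrates. All 6 were higher in shCCT2 1 and in shCCT2 3, and 4 were higher in all 3 knockdown libraries. Their median log2 changes were 0.35, 0.04 and 1.08 in shCCT2 1, 2 and 3. PSMC3, PSMC4, PSMC5 and PSMC6 had log2 changes in shCCT2 3 within a narrow range, 1.08 to 1.09, while PSMC1 had 0.83 and PSMC2 0.47. PSMC5 stood at 108.3, 150.9 and 115.9 CPM in shCtrl 1, shCCT2 1 and shCCT2 2, and at 100.8 and 214.4 CPM in shCtrl 2 and shCCT2 3. In normalised CPM both controls lay below all 3 knockdown libraries, and the controls were close to each other. The order of shCtrl 2 and shCCT2 2, which are in different tables, depends on the scaling. Its fitted change was 0.63 ± 0.25, with an unadjusted p of 0.0439 and an adjusted p of 0.542 (edgeR, Benjamini-Hochberg). It was 0.30 without shCtrl 2 or shCCT2 3, and 1.12 without shCtrl 1. PSMC2 was the 1 gene of the 34 with non-whole counts, in all 5 libraries, and RefSeq lists 3 genes that overlap it, so its level is less certain. Overlaps were not particular to PSMC2. RefSeq lists an overlapping gene for 15 of the 34, PSMC5 and PSMD1 among them, and a named pseudogene for 19.

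PSMD1 and PSMD2 encode the large scaffold subunits of the base. PSMD2 stood at 761.1, 990.8 and 790.2 CPM in the first table (shCtrl 1, shCCT2 1 and shCCT2 2) and at 334.9 and 842.9 CPM in shCtrl 2 and shCCT2 3. Each knockdown library was above its own control, and shCtrl 2 was far below the other 4 libraries. Its log2 changes were 0.38, 0.05 and 1.33, and its fitted change was 0.68 ± 0.30. PSMD1 stood at 243.3, 290.4 and 258.2 CPM in the first table and at 86.2 and 182.3 CPM in the second table (fitted 0.55 ± 0.25). Here shCCT2 3, though higher than its control, was below all of the first table. PSMD4, which encodes a receptor for ubiquitin chains at the base, varied least, with 162.2, 169.5 and 161.7 CPM in the first table and 160.1 and 176.6 CPM in the second table (fitted 0.08 ± 0.17).

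The 8 lid genes had values near 0 or near those of the base. Their median log2 changes were 0.21, 0.02 and 0.24 in shCCT2 1, 2 and 3. PSMD3, PSMD11 and PSMD12 had 0.89, 0.91 and 1.0 in shCCT2 3, next to the values of most ATPase genes. The other 5 lid genes had between -0.15 and 0.30. PSMD14, the deubiquitinase gene, stood at 160.6, 177.5 and 162.2 CPM in the first table and at 145.5 and 165.1 CPM in shCtrl 2 and shCCT2 3 (fitted 0.12 ± 0.18). The 5 libraries of PSMD14 thus lay close together, and the controls were the lowest of their tables. PSMD3, PSMD11 and PSMD12 had fitted changes of 0.46 ± 0.24, 0.48 ± 0.24 and 0.47 ± 0.26. The difference between lid genes was not tested.

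PSMD6 and PSMD8 were the 2 genes of the 34 that were lower in shCCT2 3. PSMD6 stood at 98.9, 112.8 and 104.5 CPM in the first table and at 55.4 and 50.01 CPM in shCtrl 2 and shCCT2 3. PSMD8 stood at 169.8, 198.6 and 179.0 CPM in the first table and at 217.1 and 201.9 CPM in the second table. Both were higher than their control in both knockdown libraries of the first table and lower in the second table, with fitted changes of 0.01 ± 0.18 and 0.04 ± 0.19. The difference between their changes in the 2 tables did not pass the interaction test (edgeR, Benjamini-Hochberg adjusted p = 0.645 and 0.684).

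The symbol rule also takes in PSMD5, PSMD9 and PSMD10, which encode chaperones of base assembly that leave the finished particle. PSMD5 stood at 102.5, 122.6 and 107.1 CPM in the first table and at 64.8 and 102.5 CPM in shCtrl 2 and shCCT2 3 (fitted 0.37 ± 0.20). It was higher than its control in all 3 knockdown libraries. PSMD9 stood at 53.1, 50.4 and 55.0 CPM in the first table and at 32.3 and 40.1 CPM in the second table (fitted 0.13 ± 0.19). PSMD10 stood at 38.3, 41.8 and 44.2 CPM in the first table and at 45.7 and 47.9 CPM in the second table (fitted 0.12 ± 0.18), the controls being the lower libraries in both tables by small amounts.

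The order of the genes by change was partly shared between shCCT2 1 and shCCT2 3, which have no control in common. For shCCT2 2 and shCCT2 3, which also have none, no correlation was computed. Of the cap genes with at least 1.0 in shCCT2 3, PSMC3, PSMC4 and PSMD12 were below 0 in shCCT2 2. PSMC5, PSMC6, PSMD1 and PSMD2 were above 0 there. The largest cap change in shCCT2 2, 0.20 for PSMD10, was 0.07 in shCCT2 3. Across the 34 genes, the log2 changes of shCCT2 1 and shCCT2 3 had a Pearson correlation of 0.46 and a Spearman correlation of 0.53, and 0.60 by either measure without PSMA1. Over the 20 cap genes they were 0.69 and 0.71, and over the 14 core genes 0.18 and 0.31. These are descriptions across genes, which share libraries and are not independent. No correlation over all genes was computed, so the values have no background to be set against. The share of reads in the highest-numbered 20% of windows along transcripts, whose end of the transcript is not given, was 16.7% and 15.2% in the controls (shCtrl 1, shCtrl 2) and 13.8%, 15.3% and 14.1% in shCCT2 1, 2 and 3, so shCCT2 1 and shCCT2 3, which had the larger proteasome differences, also had the lower shares. Its part in the result was not tested.

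Genes of the wider pathway were taken from 7 lists. None of the 45 tested genes passed (edgeR, Benjamini-Hochberg, lowest adjusted p = 0.542), with 1 higher and 0 lower at an unadjusted p under 0.05, against 2.83% and 4.57% of all genes. In every knockdown library, 11 of the 45 were above their control and 7 below, near the 20.2% and 21.4% of all genes. DESeq2's Wald test also called 0 of the 45, against 0.164% of all genes. The pathway outside the constitutive subunits thus had genes on both sides of 0, with a median fitted change of 0.07.

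The 3 immunoproteasome genes had fitted changes below 0, though none passed, and their difference from the constitutive subunits was not tested. PSMB9 stood at 40.2, 31.2 and 44.2 CPM in shCtrl 1, shCCT2 1 and shCCT2 2, and at 20.3 and 5.46 CPM in shCtrl 2 and shCCT2 3. PSMB8 stood at 95.0, 78.6 and 94.5 CPM in the first table and at 60.02 and 42.8 CPM in the second table. PSMB10 stood at 28.6, 19.3 and 29.4 CPM in the first table and at 39.8 and 22.6 CPM in the second table. All 3 were lower in shCCT2 1 and in shCCT2 3, while in shCCT2 2 the log2 changes were 0.14 for PSMB9, 0.04 for PSMB10 and -0.01 for PSMB8. The fitted changes were -0.86 ± 0.45 for PSMB9, -0.29 ± 0.20 for PSMB8 and -0.49 ± 0.28 for PSMB10. Without shCCT2 3 they were -0.09, -0.13 and -0.23, and without shCtrl 1 they were -1.86, -0.46 and -0.79, in the same order. Summed, the 3 genes stood at 163.8, 129.1 and 168.2 CPM in the first table and at 120.1 and 70.9 CPM in the second table.

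The activators that can replace the cap lay on both sides of 0. PSME3, whose product forms a nuclear activator ring, stood at 191.2, 270.6 and 198.5 CPM in the first table and at 121.7 and 312.8 CPM in shCtrl 2 and shCCT2 3. Each knockdown library was above its own control, by 0.50, 0.05 and 1.36 on the log2 scale. The fitted change was 0.74 ± 0.30 (edgeR's quasi-likelihood test, unadjusted p = 0.0464, Benjamini-Hochberg adjusted p = 0.542), and 0.29 without shCCT2 3. PSME1, a subunit of the interferon-induced activator, stood at 224.5, 190.2 and 218.3 CPM in the first table and at 120.1 and 69.2 CPM in the second table (fitted -0.42 ± 0.22). It was lower in all 3 knockdown libraries. PSME2, PSME4 and the inhibitor gene PSMF1 had fitted changes between -0.03 and 0.14.

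Among genes whose products bind or build the proteasome, ADRM1 encodes a ubiquitin receptor at the base. ADRM1 stood at 231.2, 280.0 and 224.6 CPM in the first table and at 230.9 and 539.2 CPM in shCtrl 2 and shCCT2 3 (fitted 0.58 ± 0.29, and 0.13 without shCCT2 3). Its controls were alike, and shCCT2 3 was far above the other libraries. UBE3C, a ubiquitin ligase gene, was higher in all 3 knockdown libraries by 0.32, 0.22 and 0.51 on the log2 scale (fitted 0.37 ± 0.18). Of the 6 assembly chaperone genes, 5 had fitted values above 0, and PAAF1 was the exception at -0.57 ± 0.28, with log2 changes of -0.39, -0.09 and -0.98.

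NFE2L1, the transcription factor gene of the pathway, had its highest and lowest libraries in another order than the subunit genes. It stood at 206.0, 252.2 and 219.1 CPM in shCtrl 1, shCCT2 1 and shCCT2 2, and at 498.1 and 312.2 CPM in shCtrl 2 and shCCT2 3. It was highest in shCtrl 2, the library in which most subunit genes were lowest, and its fitted change was -0.19 ± 0.26. These are mRNA levels, while the activity of NFE2L1 is set largely on the protein. MAFF and MAFK, small partners of NFE2L1 on DNA, had fitted changes of -0.45 ± 0.25 and -0.44 ± 0.24. Their log2 changes in shCCT2 1, 2 and 3 were -0.13, -0.06 and -0.91 for MAFF and -0.18, 0.01 and -0.88 for MAFK. Without shCCT2 3 the fitted values were -0.09 and -0.08. MAFG, the third small MAF gene of the list, had a fitted change of 0.08 ± 0.18 and 0.16 in shCCT2 3. UFD1, a partner of the unfoldase VCP, was at 70.4, 75.1 and 67.1 CPM in the first table and at 61.8 and 237.9 CPM in the second table. Its fitted value of 0.79 ± 0.43 became 0.01 without shCCT2 3.

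**Figure D4:**
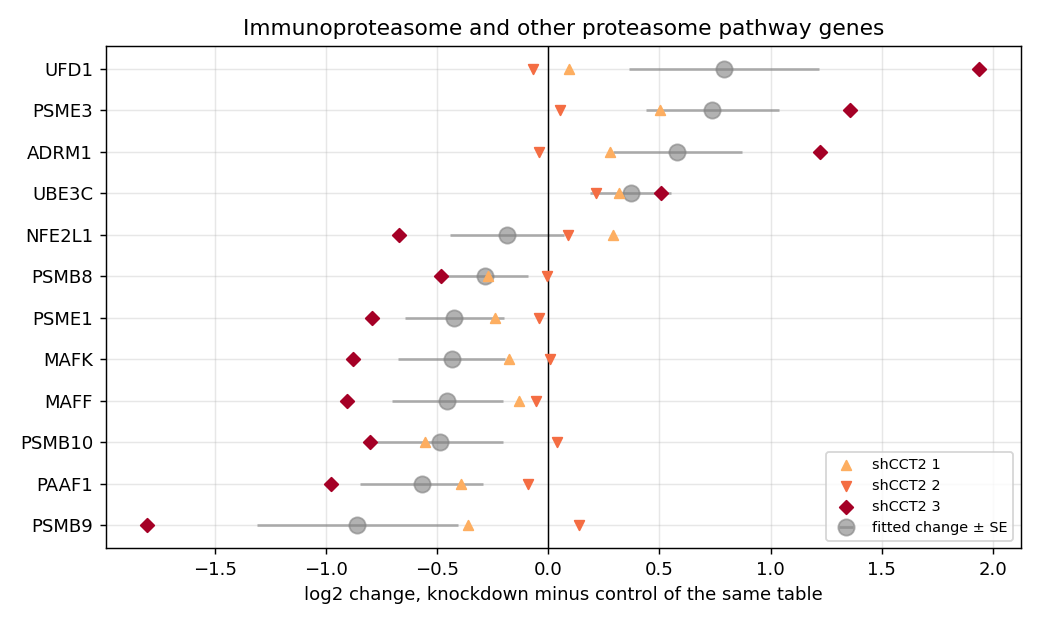
Log2 change (horizontal axis, knockdown minus the control of the same table) of the 12 named genes of the wider pathway. Grey points are the fitted change with its SE, and coloured markers are the 3 knockdown libraries. The immunoproteasome genes PSMB8, PSMB9 and PSMB10 lie left of 0 in shCCT2 1 and shCCT2 3, and PSME3 and UBE3C lie right of 0 in all 3.

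NFE2L1 binds the antioxidant response element, so the core of that element, TGACNNNGC, was searched on both strands of promoters (250 bases before to 50 after the gene start, RefSeq, GRCh38.p14). Of the 34 genes, 29 had a promoter entry, and the first listed start was used. The element core was in 7 of 29 promoters, 1 of 10 core and 6 of 19 cap genes, against 13.3% of all 35116 promoters. The CCAAT box, CCAAT, was in 15 of 29, against 34.6%, and the palindromic motif of nuclear respiratory factor in 5 of 29, against 5.78%. The background is all promoter entries. It was not limited to the genes tested or to the first listed start of a gene, so the shares are of unlike sets. The 7 genes with the element core were PSMB3, PSMC4, PSMD1, PSMD3, PSMD5, PSMD9 and PSMD12. Their log2 changes in shCCT2 3 ran from 0.31 (PSMD9) to 1.09 (PSMC4). PSMC3, PSMC5, PSMC6 and PSMD2 had values of 1.08 to 1.33 without a match in this window. In PSMC4 and PSMD1 the match lay after the gene start. The stretches around the match are given for PSMD12, PSMD3, PSMD5 and PSMB3, the genes with the highest fitted changes among those whose match ends before the start, to show the element core in its promoter context. Each is written 5′ to 3′ on the gene's strand, with the match in capitals.
PSMD12, chr17:67366684-67366792, minus strand: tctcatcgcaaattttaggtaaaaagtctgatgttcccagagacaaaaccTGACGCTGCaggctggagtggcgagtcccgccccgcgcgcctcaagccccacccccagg
PSMD3, chr17:39980720-39980796, plus strand: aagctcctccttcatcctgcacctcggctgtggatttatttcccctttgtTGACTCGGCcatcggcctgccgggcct
PSMD5, chr9:120842998-120843106, minus strand: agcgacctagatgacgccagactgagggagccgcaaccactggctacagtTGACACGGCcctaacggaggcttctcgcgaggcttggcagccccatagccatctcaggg
PSMB3, chr17:38752587-38752695, plus strand: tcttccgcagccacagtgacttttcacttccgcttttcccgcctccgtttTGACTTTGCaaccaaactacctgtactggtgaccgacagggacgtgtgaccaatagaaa
The matches begin 165, 37, 134 and 104 bases before the gene start in PSMD12, PSMD3, PSMD5 and PSMB3. A match describes the letters only, and binding was not measured.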

How the data were processed

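RNA-seq libraries of SAS cells, 2 shCtrl and 3 shCCT2, were analysed from 2 gene tables. The tables hold the authors' estimated counts per gene as deposited, not scaled, of which 86.2% to 87.9% were exactly whole numbers (tolerance 0). STAR, HTSeq and mm10 are named in the submitters' processing notes with no role, while the gene identifiers are human; the build and the counting settings are not given in the sources used here. The window signal, deposited per library by the authors, gives reads by relative position along transcripts, with no further description, so which transcript end the first window is remains unknown.

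Genes were matched between tables by identifier, counts were rounded, low genes removed with filterByExpr and libraries scaled by TMM. Library totals of 16913585 to 18156592 counts make counting error small beside the spread between libraries. Knockdown was tested against control with edgeR 4.0.16 (R 4.3.3, quasi-likelihood F-test, table as a term, 2 residual degrees of freedom), with Benjamini-Hochberg adjustment over all 13123 genes and a threshold of 0.05. The interaction of table and hairpin was tested likewise. SEs were obtained from the fitted change and the F statistic (size of the change over the root of F). Changes per library are on the log2(CPM + 0.5) scale, which understates the change of low genes. Only the edgeR knockdown test, with the table as a term, was tried on simulated counts, which had the same dispersion for every gene. The interaction test and the other steps were not tried in this way.

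Alternatives were DESeq2 1.42.0, library totals, DESeq2 size factors, other filters, robust estimation, unrounded counts, no table term, a replicate block and each library left out. Values per library are given for the catalytic, scaffold, receptor, deubiquitinase and assembly factor genes, the 2 highest and 2 lowest fitted changes of core and cap, the immunoproteasome genes, NFE2L1 and the 8 further pathway genes with the smallest p. PSMA2 and MAFG were added after their values were seen. The members and lists were chosen with earlier results of these data known. Promoters are from RefSeq, GRCh38.p14. Promoters with the element core were to be printed from the highest fitted change down; those with the match after the gene start were passed over.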

Additional observations from a re-analysis of the deposited data

How the results depend on the processing

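The count of all genes called for knockdown was 0, 21 with DESeq2, and 0 to 2 with 1 library left out (2 without shCCT2 2); no proteasome gene was called in any of these. The interaction called 261 genes with DESeq2, 575 with library totals, 185 with robust estimation and 54 at 10 CPM or more in 2 libraries; of the 34 genes, 1 (PSMA1) was called with DESeq2, library totals and robust estimation. The interaction could not be fitted without shCCT2 1 or shCCT2 2, which leaves 0 residual degrees of freedom. With 1 library left out, the median fitted change ran from 0.046 to 0.60 (core) and from 0.15 to 0.78 (cap), lowest without shCtrl 2 or shCCT2 3 and highest without shCtrl 1.

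The following fitted knockdown changes, none of them past the threshold, changed sign. With a library left out, PSMB6 ran from -0.078 to 0.29, PSMD6 from -0.12 to 0.14, PSMD8 from -0.075 to 0.15, PSMD9 from -0.011 to 0.34 and NFE2L1 from -0.64 to 0.19. With library totals, PSMB1 was -0.013, PSMD6 -0.051 and PSMD8 -0.024. At 10 CPM or more, PSMD6 was -0.029 and PSMD8 -0.0017. With no table term, PSMD8 was -0.0020. The cause was not tested. Library totals moved the median of all genes from -0.016 to -0.081.

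With the replicate number as a block, PSMA1 was -0.57, PSMD8 -0.026, PSMB8 0.19, PSMB9 0.38, PAAF1 0.26 and PSME1 0.31, and the medians were 0.32 (core) and 0.34 (cap), with 0 genes called. The numbers cut across the tables, since shCtrl 2 and shCCT2 2 share a number but not a table. Deviations from the group mean had correlations of 0.602 to 0.734 for pairs within a table. The 0.685 of shCtrl 1 and shCCT2 1, which also share a number, is among them. The value for shCtrl 2 and shCCT2 2 was -0.602. With 2 controls the deviations mirror each other, so it is the 0.602 of shCtrl 1 and shCCT2 2 with its sign turned.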
